A study of Homo sapiens with 12 samples.

Results

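Genes for DNA replication licensing and the replication fork were followed by RNAseq in C4-2 cells treated with PBKi or with DMSO. The members were a written list of 53 gene symbols. They cover origin licensing, the replicative helicase, the polymerases and clamp, single-strand binding, deoxynucleotide supply and fork protection. No expression value entered the rule, but the list was chosen with earlier results of these data known. Of the 53 symbols, 52 were matched to an Ensembl gene of the count files and 1, UHRF1, was not. All 52 matched members passed the count filter (at least 10 reads in at least 6 samples), among 14505 of 54127 genes that did.

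The DMSO group held 6 samples of C4-2, a castration-resistant prostate cancer cell line derived from LNCaP, grown in RPMI with serum and given the vehicle. The PBKi group held 6 samples of the same line given 1 µM PBKi (HI-TOPK-032, also called TOPK32), a catalytic inhibitor of the mitotic kinase PBK. According to the methods of the study, treatment lasted 6 h. The labels do not say whether the 6 samples of a group came from separate cultures, so p-values measure only the spread between these samples, which may be technical, and C4-2 is a single cell line.

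Replication origins are licensed in G1, when the origin recognition complex and the loading factors CDC6 and CDT1 place the MCM2-7 helicase on DNA in an inactive form, and geminin blocks reloading later in the cycle. In S phase the kinase CDC7 with DBF4, together with CDC45 and the GINS complex, turns MCM2-7 into the active helicase, and polymerases alpha, delta and epsilon copy the strands behind it with the sliding clamp PCNA. Transcripts of many of these genes rise from late G1 into S phase under E2F factors. In bulk RNA, fewer cells in a phase of the cycle and less RNA per cell cannot be told apart.

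Sequencing depth was 9663203 to 28029908 reads on genes in DMSO and 13122415 to 22817803 in PBKi. Reads outside genes were 5.74% to 6.96% of each DMSO library and 5.94% to 9.30% of each PBKi library, with the most in PBKi replicates 3 (9.30%) and 6 (8.83%). All 9 prostate epithelial markers on the list were present in both groups, and most markers of other cell types were near absent, with 5 of 7 fibroblast, 4 of 5 matched endothelial and 7 of 8 immune markers at a mean under 1 CPM. The exceptions were COL1A1, PDGFRB, VWF and CD68. Summed over each list, prostate markers had 4781 to 5747 CPM in DMSO and 2440.2 to 3324 CPM in PBKi, with KLK3 the most abundant, and immune markers 3.02 to 5.02 and 5.37 to 7.02 CPM, nearly all CD68. Fibroblast markers summed to 21.3 to 26.1 and 19.4 to 24.9 CPM and endothelial markers to 4.36 to 7.57 and 3.47 to 4.91 CPM, and the part of these lists in the results was not tested. Expression is given as read counts scaled to library size with TMM factors (CPM), and fold changes are PBKi over DMSO.

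Expression of the replication genes was lower in PBKi. Of the 52 members, 35 (67.3%) were downregulated by the quasi-likelihood test of edgeR (p adjusted by Benjamini-Hochberg over all genes, threshold 0.05), where 21.5% of all genes tested were downregulated. None was upregulated (0 of 52, also 0 at an unadjusted p under 0.05 and 0 with DESeq2), where 20.1% of all genes were. The other 17 members had no call, and log2 fold changes were negative in 49 members and positive in 3 (FEN1, CLSPN and RRM2), with 47 negative under upper quartile or total count scaling, where POLE and TIPIN turn positive. In 23 members (44.2%) every PBKi sample lay below every DMSO sample, where 9.68% of all genes did so, and in 0 members did every PBKi sample lie above every DMSO sample, where 10.5% of all genes did. The split of all genes depended on scaling, with 3125 lower and 2921 higher calls here and 2402 lower and 3602 higher with scaling to total counts alone, under which 31 members were downregulated.

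The changes were small. The median log2 fold change of the members was -0.25, beside -0.012 over all genes tested, and the members ranged from -0.65 to 0.11. POLE2 had the deepest fall, where expression fell by 36.1%, and the smallest change that was called, in RRM1, fell by 11.9%. Downregulation with a log2 fold change of -0.5 or lower was found in 4 members, POLE2, RFC3, CDC45 and RFC4, and in 626 of all genes tested (4.32%). Counts per sample were between 162 (ORC3) and 13779 (MCM7), and the median standard error of the members was 0.066 on the log2 scale.

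**Figure D1:**
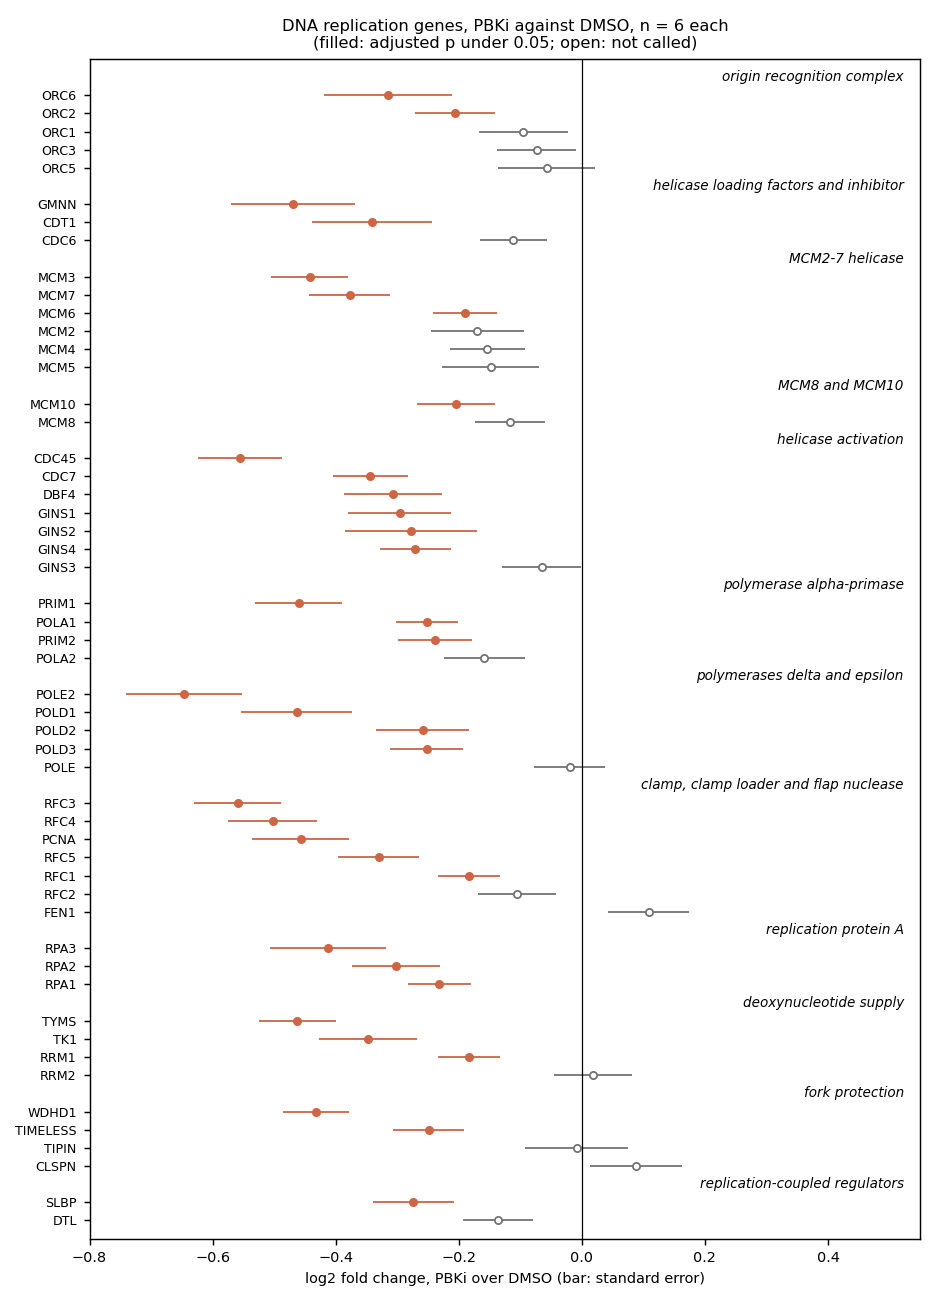
Log2 fold change (PBKi over DMSO, n = 6 each) of the 52 measured members on the horizontal axis, grouped by role, with bars for the standard error, filled points for adjusted p under 0.05 and open points for no call. The 35 filled points lie between -0.65 and -0.18, and the open points lie around or just below 0.

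Promoters of several members that hold an E2F-type match are shown, because many members are known E2F targets. Members without a match are not shown, and the part of E2F in the fall was not tested. The letters are 200 bases just upstream of the RefSeq start on build GRCh38.p14, written 5′ to 3′ on the strand of the gene, with E2F-type matches in capitals. RFC3 (chr13:33817949-33818148, plus strand), PCNA (chr20:5126623-5126822, minus strand), CDT1 (chr16:88803589-88803788, plus strand) and MCM6 (chr2:135876444-135876643, minus strand) belong to downregulated genes. POLE (chr12:132687343-132687542, minus strand) belongs to a gene without a call.
RFC3: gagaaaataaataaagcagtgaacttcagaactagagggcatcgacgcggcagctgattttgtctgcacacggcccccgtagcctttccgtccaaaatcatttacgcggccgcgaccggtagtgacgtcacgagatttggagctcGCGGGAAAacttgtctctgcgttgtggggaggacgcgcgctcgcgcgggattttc
PCNA: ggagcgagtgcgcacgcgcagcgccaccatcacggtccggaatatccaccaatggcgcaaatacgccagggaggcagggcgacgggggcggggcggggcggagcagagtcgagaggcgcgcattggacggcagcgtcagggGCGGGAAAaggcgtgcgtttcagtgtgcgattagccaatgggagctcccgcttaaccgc
CDT1: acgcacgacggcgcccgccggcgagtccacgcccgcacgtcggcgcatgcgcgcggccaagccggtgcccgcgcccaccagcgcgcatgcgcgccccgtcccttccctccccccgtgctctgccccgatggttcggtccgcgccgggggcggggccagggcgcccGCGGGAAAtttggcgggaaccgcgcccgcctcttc
MCM6: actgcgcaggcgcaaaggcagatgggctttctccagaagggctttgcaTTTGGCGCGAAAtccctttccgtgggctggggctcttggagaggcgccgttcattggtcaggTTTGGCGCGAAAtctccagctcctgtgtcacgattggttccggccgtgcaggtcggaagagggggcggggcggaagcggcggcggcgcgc
POLE: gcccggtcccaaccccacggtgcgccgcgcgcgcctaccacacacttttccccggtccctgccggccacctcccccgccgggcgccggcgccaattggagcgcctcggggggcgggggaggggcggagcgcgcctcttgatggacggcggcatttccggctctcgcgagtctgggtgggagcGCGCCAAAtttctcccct

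The E2F-type motif was searched as TTTCCCGC, TTTCGCGC, TTTGCCGC and TTTGGCGC on both strands of 300-base windows, from 250 bases before to 50 after the start. It occurred in 24 of the 47 members with a promoter in the table (51.1%), beside 3.99% of 27305 genes with a promoter and 6.64% of the 10650 of those tested here. The MCM6 window holds 4 matches, which overlap in pairs. Of the 23 measured members with a match 13 were downregulated (median log2 fold change -0.25), and of the 23 without a match 18 were (median -0.25). The CCAAT box, searched as CCAAT on both strands, was found in 63.8% of the members, 39.7% of genes with a promoter and 43.5% of those tested here. The cell cycle homology region (TTTGAA or TTCGAA), an element of G2/M promoters, was found in 3 of the 47 members (6.38%). It was found in 19.5% of genes with a promoter and 15.2% of those tested here. A match is a description of letters and says nothing of binding in these cells.

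The origin recognition complex marks origins and had 2 of 5 members downregulated. ORC6, its smallest and loosely bound subunit (chromosome 16, 46723555 to 46732306, GRCh37 as for all gene positions below), was at 38.1, 44.5 and 60.3 CPM (lowest, median and highest sample) in DMSO and at 33.6, 37.9 and 41.0 in PBKi. The log2 fold change was -0.32 ± 0.10 (± after a fold change is its standard error throughout, adjusted p = 0.0211, edgeR). The groups overlapped, since DMSO replicates 4, 5 and 6 lay between 38.1 and 39.3 CPM and replicates 1 to 3 were near 50 CPM or higher. The call was lost in 4 of 12 fits that left out 1 sample and with scaling to total counts. ORC2, a core subunit, had a log2 fold change of -0.21 (adjusted p = 0.0172, edgeR), a call lost in 2 of the 12 fits and with total counts. No call was made for ORC1 (-0.10), an ATPase of the complex, ORC3 (-0.07) or ORC5 (-0.06), core subunits.

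Among the loading factors, geminin (GMNN, chromosome 6, 24775159 to 24786327), the inhibitor of CDT1, had 68.1, 82.7 and 109 CPM in DMSO and 54.9, 63.0 and 68.3 CPM in PBKi. The log2 fold change was -0.47 ± 0.10 (adjusted p = 0.00127, edgeR). The ranges met, with PBKi replicate 1 at 68.3 CPM just above DMSO replicate 4 at 68.1. CDT1, which brings the helicase to the origin, had 47.1, 54.7 and 78.1 CPM in DMSO and 41.0, 44.6 and 49.5 in PBKi (log2 fold change -0.34 ± 0.098, adjusted p = 0.00958, edgeR). DMSO replicate 5 was highest for CDT1, and the groups overlapped. CDC6, the ATPase that loads MCM2-7 with CDT1, had 177 to 192 CPM in DMSO and 153 to 186 in PBKi without a call (-0.11, adjusted p = 0.108, edgeR).

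The MCM2-7 helicase unwinds DNA at the fork, and 3 of its 6 subunits were downregulated. MCM3 (chromosome 6, 52128812 to 52149679) was at 249, 255 and 266 CPM in DMSO and 165, 185 and 219 in PBKi, with no overlap. This was a log2 fold change of -0.44 ± 0.062 (adjusted p = 2.20e-05, edgeR). MCM7 fell from a range of 475 to 579 CPM to 343 to 441 CPM (-0.38 ± 0.066), also without overlap, and MCM6 was downregulated with overlapping ranges (-0.19 ± 0.052). MCM2 (-0.17, adjusted p = 0.0834), MCM4 (-0.15, adjusted p = 0.0524) and MCM5 (-0.15, adjusted p = 0.141) had negative estimates that did not pass edgeR's threshold. With the replicate set (1 to 3 or 4 to 6) as a covariate, MCM2 and MCM4 were also downregulated, where 25.5% of all genes were. Differences between the subunits were not tested. Per kilobase of exon, the levels in DMSO went from 18.2 ± 2.71 CPM/kb for MCM5 to 102 ± 7.69 for MCM7 (SD, n = 6), and in PBKi from 16.4 ± 0.949 to 78.5 ± 7.27. MCM7 stood highest and MCM5 lowest in both groups, per kilobase and also in mean CPM. Exon length here is the union of all annotated exons of a gene, so levels per kilobase of different genes depend on the annotation.

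MCM10, which joins the helicase at activation, was downregulated with overlapping ranges. It had 104, 109 and 123 CPM in DMSO and 89.5, 93.5 and 112 in PBKi (-0.20 ± 0.064, adjusted p = 0.0162, edgeR). This call was lost in 2 of 12 fits without 1 sample and with total counts. MCM8, a helicase of recombination and replication repair, had a log2 fold change of -0.12 without a call.

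**Figure D2:**
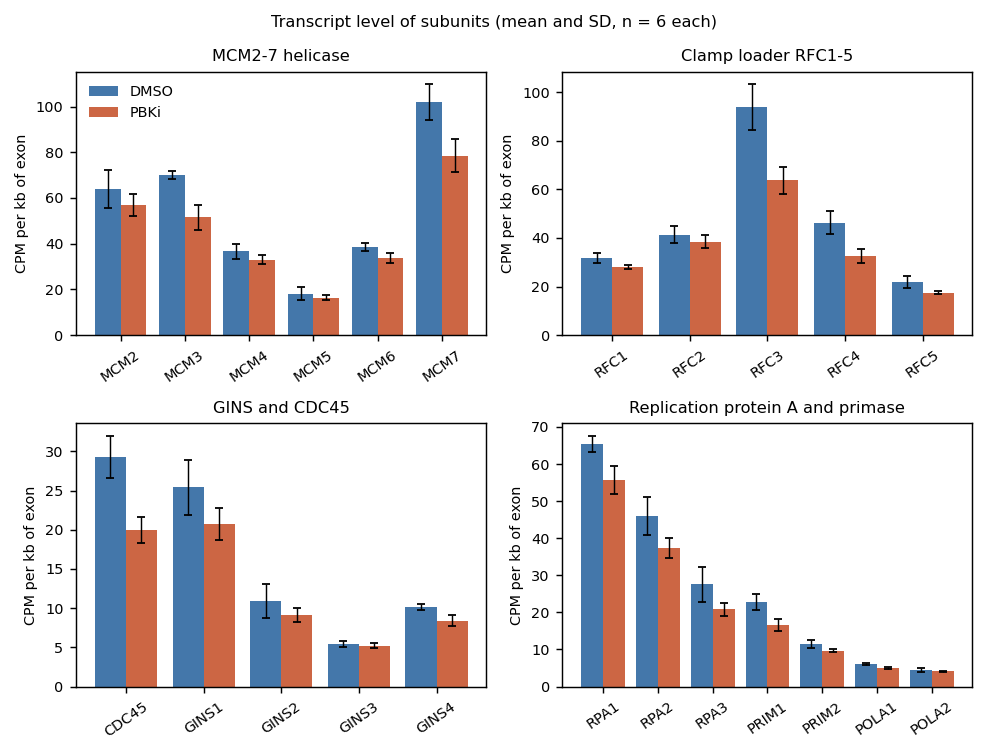
Level per kilobase of exon (CPM/kb, bars for the mean and whiskers for the SD, n = 6) of subunits of the MCM2-7 helicase, the clamp loader, GINS with CDC45, and replication protein A with polymerase alpha-primase, in DMSO and PBKi. The PBKi bar is shorter in every subunit drawn, with the widest gaps in RFC3 (93.7 against 63.6 CPM/kb) and MCM7 (102 against 78.5 CPM/kb). Heights of different genes depend on the annotated exon length.

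Helicase activation genes were downregulated in 6 of 7. CDC45 (chromosome 22, 19466980 to 19508135), the helicase cofactor recruited at origin firing, had 78.4, 87.7 and 96.3 CPM in DMSO and 52.4, 59.7 and 67.2 in PBKi. Its log2 fold change was -0.56 ± 0.068 (adjusted p = 5.22e-06, edgeR), and the lowest DMSO sample exceeded the highest PBKi sample. CDC7, the kinase that phosphorylates MCM proteins, had 95.4, 111 and 124 CPM in DMSO and 82.2, 88.7 and 91.7 in PBKi (-0.34 ± 0.061), with no overlap. Its activating subunit DBF4 had 71.6, 85.7 and 106 CPM in DMSO and 62.9, 71.9 and 76.4 in PBKi (-0.31 ± 0.080), and here the groups overlapped. The GINS complex, the other cofactor of the active helicase, had 3 downregulated subunits of 4, which were GINS1 (-0.30), GINS2 (-0.28, adjusted p = 0.0462, edgeR) and GINS4 (-0.27). The call of GINS2 was lost in 9 of 12 fits that left out 1 sample. GINS3 had a log2 fold change of -0.07 and no call. GINS4 shares 23.4% of its exons with other annotated genes, so part of its reads may have been left uncounted or assigned elsewhere.

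Polymerase alpha-primase lays down the RNA-DNA primer, and 3 of its 4 subunits were downregulated. PRIM1 (chromosome 12, 57124222 to 57146158), the catalytic primase subunit, had 67.4, 74.1 and 84.2 CPM in DMSO and 48.5, 53.8 and 63.7 in PBKi (-0.46 ± 0.071, adjusted p = 5.51e-05, edgeR). PRIM2, the regulatory primase subunit, had 50.8, 54.7 and 64.7 CPM in DMSO and 45.8, 47.9 and 50.6 in PBKi (-0.24 ± 0.060). Neither primase gene had overlapping ranges. POLA1, the catalytic polymerase subunit, had a log2 fold change of -0.25 with no overlap, and POLA2, its accessory subunit, one of -0.16 that did not pass (adjusted p = 0.0606, edgeR).

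Of the leading and lagging strand polymerases, polymerase epsilon changed unevenly. POLE2 (chromosome 14, 50110273 to 50155140), its second subunit, had 25.1, 28.0 and 37.8 CPM in DMSO and 17.3, 19.0 and 20.3 in PBKi. The log2 fold change was -0.65 ± 0.094 (adjusted p = 3.43e-05, edgeR), the ranges did not overlap, and DMSO replicates 1 to 3 (29.9 to 37.8 CPM) lay above replicates 4 to 6 (25.1 to 26.1 CPM). POLE, the catalytic subunit, had 47.1, 51.8 and 59.7 CPM in DMSO and 48.0, 51.3 and 53.4 in PBKi (-0.02 ± 0.057, adjusted p = 0.808, edgeR), with the PBKi samples inside the DMSO range. Polymerase delta was lower in all 3 listed subunits. POLD1, the catalytic subunit, had 59.5, 67.3 and 85.1 CPM in DMSO and 42.0, 49.1 and 57.8 in PBKi, with no overlap (-0.46 ± 0.090, adjusted p = 0.000537, edgeR). POLD2 (-0.26) and POLD3 (-0.25), its accessory subunits, were also downregulated.

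The clamp and its loader held 2 of the 4 deepest falls. RFC3 (chromosome 13, 34392206 to 34540695), a small subunit of the loader, had 236, 262 and 308 CPM in DMSO and 161, 179 and 203 in PBKi (-0.56 ± 0.070, adjusted p = 6.74e-06, edgeR). RFC4, another small subunit, had 121, 139 and 153 CPM in DMSO and 83.5, 98.9 and 108 in PBKi (-0.50 ± 0.073, adjusted p = 3.01e-05, edgeR). Both were separated between the groups, and PBKi replicate 6 was lowest in each. PCNA, the sliding clamp, fell from 339 to 468 CPM in DMSO to 251 to 317 in PBKi (-0.46 ± 0.079), and per kilobase it was the most highly expressed member in DMSO at 281 ± 36.9 CPM/kb (SD, n = 6). The small subunit RFC5 (-0.33) and the large subunit RFC1 (-0.18) were downregulated, and RFC2 (-0.11, adjusted p = 0.191, edgeR) had no call. FEN1, the flap nuclease that trims Okazaki fragments, had the highest log2 fold change of the members at 0.11 ± 0.066, without a call (adjusted p = 0.197, edgeR).

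Replication protein A coats single-stranded DNA, and its 3 subunits were all downregulated without overlap. RPA3 (chromosome 7, 7676149 to 7758238), the smallest subunit, had 74.2, 86.7 and 111 CPM in DMSO and 56.7, 69.5 and 72.0 in PBKi (-0.41 ± 0.094, adjusted p = 0.00201, edgeR). RPA2, the middle subunit, had a log2 fold change of -0.30 and RPA1, the large one, of -0.23.

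In deoxynucleotide supply, TYMS (chromosome 18, 657653 to 673578), which makes thymidylate, had 140.0, 149 and 169.7 CPM in DMSO and 100.1, 111 and 121 in PBKi (-0.46 ± 0.063, adjusted p = 1.57e-05, edgeR). The groups were apart, but 47.9% of the exon length of TYMS is shared with ENOSF1 and TYMSOS, which limits how reads there were assigned. TK1, the thymidine salvage kinase, was downregulated (-0.35). The subunits of ribonucleotide reductase differed. RRM1, the large subunit, had 299, 326 and 331 CPM in DMSO and 263, 283 and 304 in PBKi (-0.18 ± 0.050, adjusted p = 0.00732, edgeR). RRM2, the small subunit made in S phase, had 228, 243 and 285 CPM in DMSO and 238, 245 and 279 in PBKi (0.02 ± 0.064, adjusted p = 0.845, edgeR), with the PBKi samples inside the DMSO range.

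Fork protection genes fell in 2 of 4. WDHD1 (chromosome 14, 55405667 to 55493823), which ties polymerase alpha to the helicase, had 123, 127 and 133 CPM in DMSO and 88.7, 92.9 and 108 in PBKi (-0.43 ± 0.053, adjusted p = 5.07e-06, edgeR), with no overlap. TIMELESS had 185, 200.3 and 228 CPM in DMSO and 158, 171 and 183 in PBKi (-0.25 ± 0.058), again apart. Its partner TIPIN had 33.0, 35.5 and 45.6 CPM in DMSO and 32.7, 37.9 and 43.7 in PBKi (-0.01 ± 0.084, adjusted p = 0.948, edgeR), and 21.1% of its exons are shared with RPL9P25, a ribosomal protein pseudogene. CLSPN, the checkpoint mediator claspin, had a log2 fold change of 0.09 without a call. Of the replication-coupled regulators, SLBP (chromosome 4, 1694458 to 1714071), which binds histone mRNA, had 107, 112 and 136 CPM in DMSO and 88.3, 98.0 and 106 in PBKi (-0.27 ± 0.066, adjusted p = 0.00296, edgeR). DTL, the substrate receptor that directs CDT1 to degradation, had a log2 fold change of -0.14 that did not pass (adjusted p = 0.0643, edgeR).

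**Figure D3:**
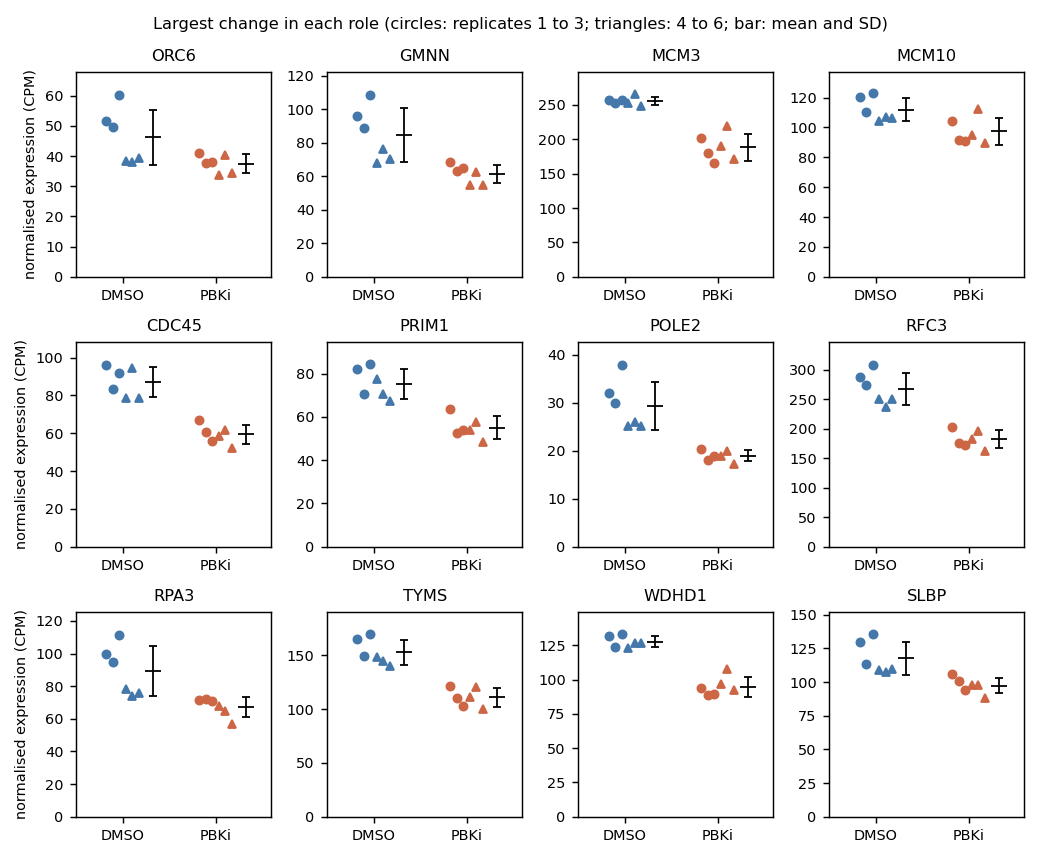
Normalised expression (CPM, linear axes from 0) per sample of the member with the largest absolute change in each of the 12 roles, with circles for replicates 1 to 3, triangles for replicates 4 to 6 and bars for the mean and SD (n = 6). ORC6, GMNN and MCM10 overlap between the groups and the other 9 do not, and the DMSO circles of ORC6, GMNN, MCM10, POLE2, RFC3, RPA3, TYMS and SLBP (8 of the 12) all stand above the DMSO triangles.

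Whether partners changed unequally was tested on 6 ratios of member pairs within a sample, with a two-sided exact permutation test over samples and Benjamini-Hochberg adjustment over the 6 ratios. The log2 ratio of POLE2 to POLE was -1.19 to -0.46 in DMSO and -1.59 to -1.29 in PBKi, a difference of -0.59 with the groups apart (exact permutation p = 0.00216, the smallest that 6 against 6 allows, adjusted p = 0.0130). PRIM1 to PRIM2 went from a mean of 0.42 ± 0.060 (SD, n = 6) to 0.19 ± 0.085, a difference of -0.23 (exact permutation p = 0.00433, adjusted p = 0.0130). The groups overlapped in this ratio, with the lowest DMSO sample at 0.320 and the highest PBKi sample at 0.331. For RRM2 to RRM1 the difference was 0.21 (exact permutation p = 0.0173, adjusted p = 0.0346), with overlap, since DMSO replicate 3 lay among the PBKi samples, and 9 of the 12 tests that left out 1 sample gave adjusted p of 0.0519 or 0.0693. These 3 ratios passed the threshold and the remaining 3 did not. TIMELESS to TIPIN differed by -0.26 (exact permutation p = 0.0693, adjusted p = 0.104), CDT1 to GMNN by 0.12 (exact permutation p = 0.524, adjusted p = 0.524) and DBF4 to CDC7 by 0.04 (exact permutation p = 0.305, adjusted p = 0.366). Within DMSO the sets of replicates did not overlap in POLE2 to POLE, at -0.79 to -0.46 in replicates 1 to 3 and -1.19 to -0.95 in replicates 4 to 6, and PBKi minus DMSO was -0.80 within the former set and -0.39 within the latter. The CDT1 to GMNN ratio also differed by set within DMSO, at -0.96 to -0.84 and -0.54 to 0.03, with differences between PBKi and DMSO of 0.32 and -0.082.

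**Figure D4:**
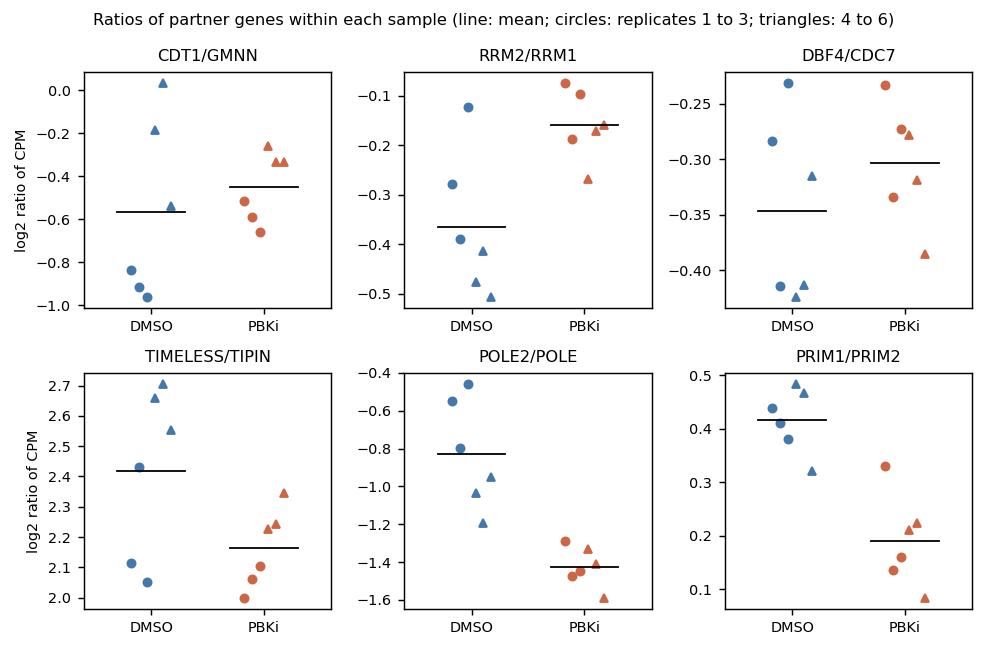
Log2 ratio of CPM of partner genes within each sample, DMSO and PBKi (n = 6 each), with circles for replicates 1 to 3, triangles for replicates 4 to 6 and a line for the mean. POLE2/POLE separates the groups without overlap (difference -0.59). PRIM1/PRIM2 is lower in PBKi (-0.23) and RRM2/RRM1 higher (0.21), both with overlapping ranges, whereas the points of CDT1/GMNN and DBF4/CDC7 mix.

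The fall was seen in each set of replicates. In replicates 1 to 3 the members had a median log2 fold change of -0.27, with 39 downregulated where 22% of all genes were, and in replicates 4 to 6 a median of -0.20, with 18 downregulated where 8.32% of all genes were (the same edgeR test on 3 against 3 samples). Across the 52 members the fold changes of the sets had a Pearson correlation of 0.79 and a Spearman correlation of 0.78, a description across genes that share libraries within each set. In 19 members every DMSO sample of replicates 1 to 3 lay above every DMSO sample of replicates 4 to 6, and the same held among the PBKi samples in 3. The share of all genes that did so is not given, so these counts cannot be called particular to the members. The log2 fold change, whatever its sign, was lower in replicates 1 to 3 than in replicates 4 to 6 in 38 of 52 members and in 6439 of 14505 genes. POLE2 had a log2 fold change of -0.80 in replicates 1 to 3 and -0.44 in replicates 4 to 6, and CDC45 had -0.56 and -0.54. No member passed a test of the difference between sets (edgeR's interaction term, lowest adjusted p = 0.927, with 4 of 52 members and 4.83% of all genes at an unadjusted p under 0.05).

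**Figure D5:**
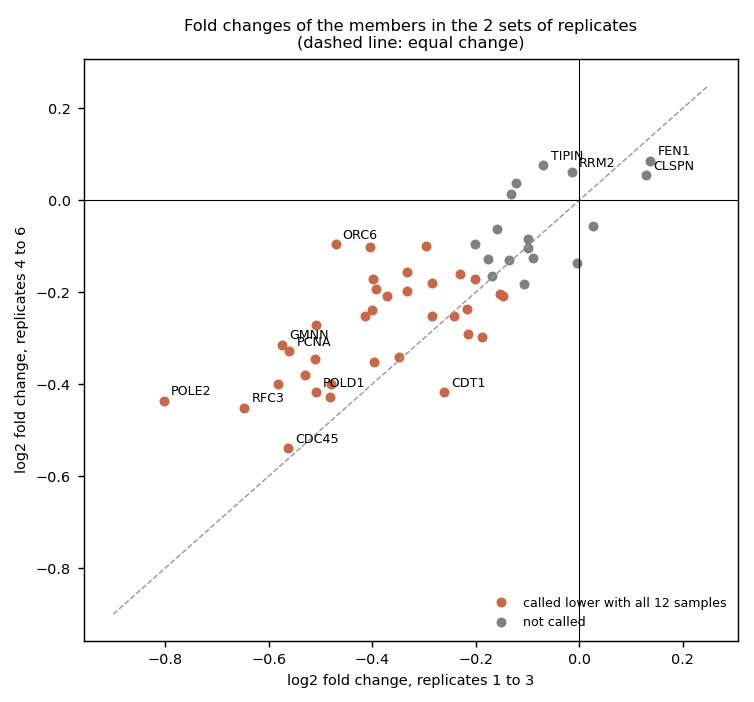
Log2 fold change of each of the 52 members in replicates 1 to 3 (horizontal) against replicates 4 to 6 (vertical), 3 samples per group in each set, with a dashed line for equal change. All 35 members called with 12 samples, in orange, lie below 0 in both sets. Above the dashed line lie 38 of the 52 points, with a lower log2 fold change in replicates 1 to 3.

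Between samples, the mean log2 deviation of the 52 members from their average over the 12 samples was 0.031 to 0.25 in DMSO and -0.23 to -0.026 in PBKi, and the groups did not overlap. PBKi replicates 6 (-0.23) and 3 (-0.18) were lowest, and these had the most reads outside genes. In 30 of 52 members PBKi replicate 6 was lowest of its group and replicate 3 in 14, while PBKi replicates 1 and 5 were highest in 25 and 23. Without PBKi replicates 3 and 6, 26 members were downregulated, where 15.3% of all genes were, and the median log2 fold change was -0.22. The calls lost without these libraries were those of CDT1, GINS1, GINS2, MCM6, MCM10, ORC6, POLD2, RFC1 and RRM1. PBKi replicates 3 and 6 were also lowest for the G2/M-expressed genes, which had a mean deviation of 0.10 to 0.22 in DMSO and -0.25 to -0.011 in PBKi.

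Members with a shorter annotated exon length had lower log2 fold changes. This length is the union of all annotated exons of a gene, not the length of a transcript. The Spearman correlation of log2 fold change with exon length was 0.41 over the 52 members and 0.094 over 14013 genes with a length, a description across genes. The 26 shorter members (up to 4309 bases of exon) had a median of -0.34 with 20 downregulated, and the 26 longer ones a median of -0.21 with 15 downregulated. The part of exon length in the fold changes was not tested.

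The rest of the replication pathway was taken from a written list of 51 other genes. Of these, 22 (43.1%) were downregulated and 4 upregulated, where 21.5% and 20.1% of all genes were, with a median log2 fold change of -0.16. The deepest falls were in MTBP (-0.52 ± 0.074), which works with Treslin in origin firing, PCLAF (-0.47 ± 0.094), a PCNA-binding protein, NASP (-0.45 ± 0.051), a histone chaperone, and DCK (-0.43 ± 0.097), which phosphorylates salvaged deoxycytidine. The 4 that rose were SAMHD1, which breaks down deoxynucleotides, POLD4, the small subunit of polymerase delta, ASF1A, a histone chaperone, and SHMT1, which supplies one-carbon units to thymidylate synthesis. SAMHD1 had 80.5, 87.7 and 93.2 CPM in DMSO and 121, 125 and 134 in PBKi (0.54 ± 0.051, adjusted p = 2.35e-07, edgeR), all PBKi samples being above all DMSO samples. POLD4 rose by 0.37 on the log2 scale from a low level (3.11 to 4.54 CPM in DMSO), ASF1A by 0.28 and SHMT1 by 0.25.

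By function, 5 of 8 further polymerase and clamp loader subunits, 3 of 5 genes of Okazaki fragment maturation, 4 of 10 of origin licensing and firing, 4 of 9 of nucleotide supply, 4 of 9 of histone deposition and methylation at forks, 1 of 3 topoisomerases and 1 of 7 of the CRL4 ligase and checkpoint group were downregulated. LIG1, which seals Okazaki fragments, fell (-0.39), as did CHEK1, the checkpoint kinase (-0.37). ATR, the upstream kinase of CHEK1, had a log2 fold change of 0.09 without a call.

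Genes that control entry into S phase and genes expressed in G2/M were read from lists of their own. Of all genes tested, 21.5% were downregulated and 20.1% upregulated. Among 21 E2F, RB and G1/S control genes, 9 (42.9%) were downregulated, including E2F1 (-0.32) and CDK2 (-0.45), and 1 was upregulated, the CDK inhibitor CDKN1A. CDKN1A had 46.0, 50.1 and 58.9 CPM in DMSO and 89.1, 97.3 and 105 in PBKi (0.94 ± 0.062, adjusted p = 2.94e-09, edgeR), with the groups apart. The median of that list was -0.11. Among 20 G2/M-expressed genes 17 (85%) were downregulated with a median of -0.34. This was a larger share and a lower median than in the members (67.3% and -0.25). The proliferation marker MKI67 (-0.05) and the regulator FOXM1 (0.05) had no call.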

How the data were processed

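RNAseq libraries of C4-2 cells (6 DMSO, 6 PBKi) were analysed from 47 deposited lane files of counts. The authors aligned 40-base single-end reads to GRCh37 (Ensembl 64) with TopHat 2.0.4 and deposited raw counts per gene from HTSeq-count 0.5.3p9, without normalisation, then tested them with DESeq 1.10.1. Strand handling is not given in the sources used here. The labels name a miRNeasy kit and flow sorted cells and the methods an AllPrep kit.

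Lanes were summed per library (DMSO replicate 5 has 3, the others 4), and lanes of a library differed by sampling noise alone (chi-square per degree of freedom 0.990 to 1.02). Groups and replicate numbers came from the labels. The test kept genes reaching 10 counts in 6 or more samples and used edgeR 4.0.16 (R 4.3.3) with TMM factors, quasi-likelihood fits and no covariates, at a Benjamini-Hochberg adjusted p under 0.05. Standard errors were derived from the fold change and F statistic. For ratios, 2 was added as a prior count before the log2 (scipy 1.17.1). Exon lengths (the union of all annotated exons of a gene) and positions came from GENCODE 44 mapped to GRCh37. Promoters came from RefSeq on GRCh38.p14 (47 of 53 members). On simulated counts, 70.9% of genes changed by 0.5 (log2) and 89.5% changed by 1 were recovered, with 3.55% false among calls. The simulation changed 200 genes, far fewer than were called in the data, and held no difference between replicate sets. Changes smaller than 0.5 were not simulated, so recovery at the median size of the members was not measured.

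Named genes were the largest change in each role, the 8 deepest falls, the ratio partners, and the 4 deepest falls and 4 largest rises among the other replication genes, all other members being given more briefly. LIG1, CHEK1, ATR, E2F1, CDK2, CDKN1A, MKI67 and FOXM1 were named after their values were seen. The members and lists were chosen with earlier results of these data known. Alternatives were other size factors, count filters, DESeq2 1.42.0, lanes 6 to 8, a covariate or a block for replicates, and leaving out samples.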

Additional observations from a re-analysis of the deposited data

Results flagged for a closer look

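SHMT1, a one-carbon enzyme among the other replication genes, had a sample far from the rest of its group in both groups. DMSO replicate 5 was at 122 CPM and the other DMSO samples between 109 and 114 CPM. PBKi replicate 4 was at 140.2 CPM and the other PBKi samples between 131 and 134 CPM. These are 2 of 74 groups of values examined, where chance gives about 5%. DMSO replicate 5 is the shallowest library and the 1 with 3 lanes, and its part in the value was not tested.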

How the results depend on the processing

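The downregulation of the members kept its direction under every alternative run, with 18 to 40 members called lower and a median log2 fold change of -0.27 to -0.20. It was thinnest in replicates 4 to 6 alone, with 18 members lower. There 9 and 2 of the other replication genes and 1207 and 1273 of all genes were lower and higher. Replicates 1 to 3 alone, also 3 against 3 samples, gave 39 members lower. Of all genes, 3187 were lower and 3352 higher in that set. At an adjusted p under 0.01, 30 members and 2073 of all genes were lower. Leaving out each sample in turn gave 31 to 38 members lower, 0 higher, 2618 to 3216 of all genes lower and 2577 to 3342 higher, and 31 of the 35 members were called in all 12 of these fits. GINS2, MCM10, ORC2 and ORC6 were not, and all 4 lost the call without DMSO replicate 1, without DMSO replicate 3 and with scaling to total counts. ORC6 also lost it without DMSO replicate 2 or PBKi replicate 4, and GINS2 in 9 of the 12. Calls were gained for MCM4 without DMSO replicate 2, 4 or 6 or PBKi replicate 5, POLA2 without DMSO replicate 4 or 6, MCM5 without DMSO replicate 6, MCM8 without DMSO replicate 5 and DTL without PBKi replicate 1 or 5.

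With the replicate number as a block, 40 members were lower, the 35 and MCM2, MCM4, MCM5, POLA2 and DTL, so that all 6 MCM2-7 subunits were called. Calls rose across all genes too, with 26.2% lower under the block and 21.5% without it. The block stands here alone because the labels tie the numbers to no shared culture or day and 1 of the 6 pairs correlated at 0.0887, under the 0.1 asked of every pair. The other pairs reached up to 0.299, the mean within pairs was 0.198 against -0.040 between numbers, and 8 of 12 samples correlated best with their own number, a hint that the numbers may pair the samples. In the paired sign-change permutation with the block, the differences of RRM2/RRM1 (0.21), POLE2/POLE (-0.59) and PRIM1/PRIM2 (-0.23) had an adjusted p of 0.0625. Each had the smallest p that 6 pairs allow. With the other ratios as they were, the adjusted p could not pass the threshold. Leaving out samples, RRM2/RRM1 was 0.18 to 0.25, with the call lost in 9 of 12, and TIMELESS/TIPIN was -0.33 to -0.20, with a call only without DMSO replicate 3 (-0.33, adjusted p = 0.0390, exact permutation).

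Sign changes occurred in 5 members without a call. TIPIN was at 0.011 with upper quartile factors, 0.038 with total counts, 0.011 with the 50-count filter, 0.036 with lanes 6 to 8, 0.077 in replicates 4 to 6, 0.050 without PBKi replicates 3 and 6 (chosen after seeing the data) and -0.051 to 0.064 leaving out samples. POLE was at 0.0011, 0.029, 0.0016 and 0.0080 under the same first 4, 0.026 in replicates 1 to 3 and -0.035 to 0.026 leaving out samples. RRM2 was at -0.014 in replicates 1 to 3 and -0.012 to 0.068 leaving out samples. ORC5 was at 0.037 and GINS3 at 0.014 in replicates 4 to 6, and ORC5 at 0.0020 without DMSO replicate 3. The cause was not tested. The lowest count of a member in a sample was 162, and the part of depth in these sign changes was not tested.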
